A study of Homo sapiens with 6 samples.

Results

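RAB small GTPases were taken as every gene of the deposited FPKM table with the symbol RAB, a number and at most 1 letter. This rule found 63 of the 58024 genes in the table. FPKM divides the fragments of a gene by transcript length and by library size, so levels of different genes can be compared per length. The C4-2B line is a castration-resistant, bone-metastatic subline derived from the human prostate cancer line LNCaP through C4-2. RNA-Seq of 3 libraries of parental C4-2B cells was compared with RNA-Seq of 3 libraries from enzalutamide resistant C4-2B cells, numbered 0 to 2 in each group. Enzalutamide is an antiandrogen drug for prostate cancer. The resistant cells had been passaged in rising concentrations from 1 to 20 µM for at least 6 months and were kept in 5 µM. They are the pooled survivors of 1 selection and not a clone. RNA was extracted after treatment with 10 µM enzalutamide, and the labels can be read as saying this of the resistant cells alone or of both lines. The parental cells received the DMSO vehicle, and all cells were grown in RPMI-1640 with serum. The labels do not say that the 3 libraries of a group came from separate cultures, so the p values measure the spread between libraries, which may be technical.

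RAB proteins are membrane switches that are active when bound to GTP and inactive when bound to GDP. Each is anchored to a particular compartment by a lipid tail and recruits effectors that move, tether or fuse vesicles there. Secretory RABs act on the path from the endoplasmic reticulum through the Golgi to the cell surface, and endocytic RABs act on early, recycling and late endosomes. The luminal cells of the prostate secrete into a duct, and RAB3 and RAB27 proteins serve this kind of regulated release in many glands and in neurons.

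The promoters of the RAB3 genes are shown first, because the 4 genes of this group did not change in the same direction, and those of RAB25 and RAB39A because these genes had the largest decrease and the second largest increase among the members. Each sequence is the 250 bases before the RefSeq transcription start (GRCh38.p14), written along the gene. Capitals mark the GC box, GGGCGG or its reverse complement CCGCCC, a motif bound by SP-family factors. The windows lie at chr19:18204043-18204292 (minus strand) for RAB3A, chr1:51990701-51990950 (minus) for RAB3B, chr5:58582825-58583074 (plus) for RAB3C, chr19:11339658-11339907 (minus) for RAB3D, chr1:156060910-156061159 (plus) for RAB25 and chr11:107928198-107928447 (plus) for RAB39A.
RAB3A: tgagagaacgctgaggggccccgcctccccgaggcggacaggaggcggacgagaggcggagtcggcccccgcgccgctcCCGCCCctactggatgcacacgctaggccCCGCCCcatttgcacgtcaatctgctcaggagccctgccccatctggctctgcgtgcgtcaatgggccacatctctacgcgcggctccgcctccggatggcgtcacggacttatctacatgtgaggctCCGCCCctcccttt
RAB3B: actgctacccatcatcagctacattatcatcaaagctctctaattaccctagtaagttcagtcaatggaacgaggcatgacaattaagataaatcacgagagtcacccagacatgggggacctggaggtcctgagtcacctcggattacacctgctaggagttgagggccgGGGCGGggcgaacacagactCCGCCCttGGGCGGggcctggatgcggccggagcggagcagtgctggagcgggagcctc
RAB3C: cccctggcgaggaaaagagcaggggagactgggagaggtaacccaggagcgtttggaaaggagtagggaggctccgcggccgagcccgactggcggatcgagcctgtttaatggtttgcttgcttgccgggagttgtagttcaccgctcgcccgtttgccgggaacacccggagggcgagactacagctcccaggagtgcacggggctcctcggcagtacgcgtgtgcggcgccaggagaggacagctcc
RAB3D: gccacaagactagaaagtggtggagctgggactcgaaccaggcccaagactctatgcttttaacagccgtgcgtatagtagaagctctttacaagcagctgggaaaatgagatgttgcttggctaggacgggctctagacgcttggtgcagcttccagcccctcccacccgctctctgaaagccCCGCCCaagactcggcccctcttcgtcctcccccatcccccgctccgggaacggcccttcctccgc
RAB25: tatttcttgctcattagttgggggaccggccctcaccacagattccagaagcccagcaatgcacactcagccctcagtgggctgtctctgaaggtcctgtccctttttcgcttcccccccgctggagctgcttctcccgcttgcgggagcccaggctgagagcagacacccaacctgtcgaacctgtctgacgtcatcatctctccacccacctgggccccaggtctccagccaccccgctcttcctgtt
RAB39A: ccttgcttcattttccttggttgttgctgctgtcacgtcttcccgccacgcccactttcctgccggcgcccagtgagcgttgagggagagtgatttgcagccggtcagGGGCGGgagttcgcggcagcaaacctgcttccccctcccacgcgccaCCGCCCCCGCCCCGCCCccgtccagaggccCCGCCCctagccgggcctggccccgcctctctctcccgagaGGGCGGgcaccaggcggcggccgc
RAB3A and RAB3B held 3 GC boxes each, RAB3D held 1 and RAB39A held 6, some of which share a base. None was found in the windows of RAB3C or RAB25. None of the 6 windows held the CCAAT box (CCAAT), the E-box CACGTG or the TATA box (TATAAA), each searched on both strands. A promoter of this table was matched to 49 of the 63 members. A GC box was found in 77.6% of these 49 windows, in 75.0% of the 12 whose gene was higher in resistant cells, in 82.4% of the 17 whose gene was lower, and in 42.3% of all 27305 promoters, which include those of noncoding genes. The CCAAT box was found in 26.5% of the member windows and in 33.0% of all promoters. A match is a description of the letters and not evidence of binding.

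Libraries held an estimated 13600000 to 20600000 reads, so that a single read on a transcript of 2000 bases adds 0.0270 to 0.0407 FPKM. Prostate luminal genes were present in every library, with HOXB13 at a mean of 103 ± 6.91 FPKM (SD, n = 3) in parental and 102 ± 3.76 FPKM in resistant cells. The summed level of the 10 luminal markers was 4709 ± 385 FPKM in parental and 1363 ± 51.9 FPKM in resistant cells (n = 3 each). Of these markers, 7 were lower in resistant cells, with KLK3 at a log2 fold change of -5.85, while KRT8 was higher with a log2 fold change of 0.30. The 10 neuroendocrine markers summed to 14.4 to 16.7 FPKM in parental and 211 to 235.5 FPKM in resistant libraries. Of the 8 that were tested, 6 were higher and 1, DLL3, was lower, and the defining factor INSM1 was at or near 0 in all libraries. SCG2, SCG3, CHGA and CHGB averaged under 0.1 FPKM in parental cells and so entered the test through the resistant group alone. For both marker sets, the shares of all genes tested were 22.1% higher and 22.3% lower (limma, adjusted p under 0.05). The 10 stromal and blood cell markers summed to 5.88 to 9.40 FPKM in parental and 7.99 to 12.4 FPKM in resistant libraries. CD3E was listed at 0 everywhere and PTPRC, PECAM1 and CDH5 at or near 0, while DCN was listed at 0 in every parental library and at 3.63 to 4.35 FPKM in the resistant ones. The part of these shifts in the RAB results was not tested. In bulk RNA, fewer cells of a type and less RNA per cell cannot be told apart.

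Of the 63 members, 58 averaged 0.1 FPKM or more over all libraries and were tested, among them RAB1C, which is annotated as a processed pseudogene. RAB3C, RAB33A, RAB34 and RAB40A averaged under 0.1 FPKM in parental cells and RAB6C in resistant cells, so these members entered the test through the other group alone. RAB38 and RAB41 were listed at 0 in all libraries, RAB42 and RAB44 stayed near 0, and RAB7B was listed at 0 in all but resistant library 0, where it was at 0.404 FPKM. At a Benjamini-Hochberg adjusted p under 0.05 (limma, two-sided), 15 members were higher and 21 were lower in resistant cells, and 22 did not pass. That is 62.1% of the tested members, against 44.4% of all 24468 genes tested. By direction, 22.1% of all genes were higher and 22.3% were lower. With a change of at least 2-fold as well, 10 members were higher and 13 were lower, against 15.0% and 13.6% of all genes. The share of all genes depends on level. In a separate fit of genes averaging 1 FPKM or more, 55.1% of all genes passed. Of the 52 members in that fit, 13 were higher and 20 were lower. Of the 58 members tested in the main fit, 18 were higher and 27 were lower with no overlap between the 2 groups. For all genes, 54.8% had no overlap. The median log2 fold change of the members was -0.23, and that of all genes was -0.05. This median moved to -0.06 without resistant replicate 0 and to -0.12 without parental replicate 1. The smallest exact permutation p for 3 against 3 libraries is 0.1, so single genes rest on limma.

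**Figure D1:**
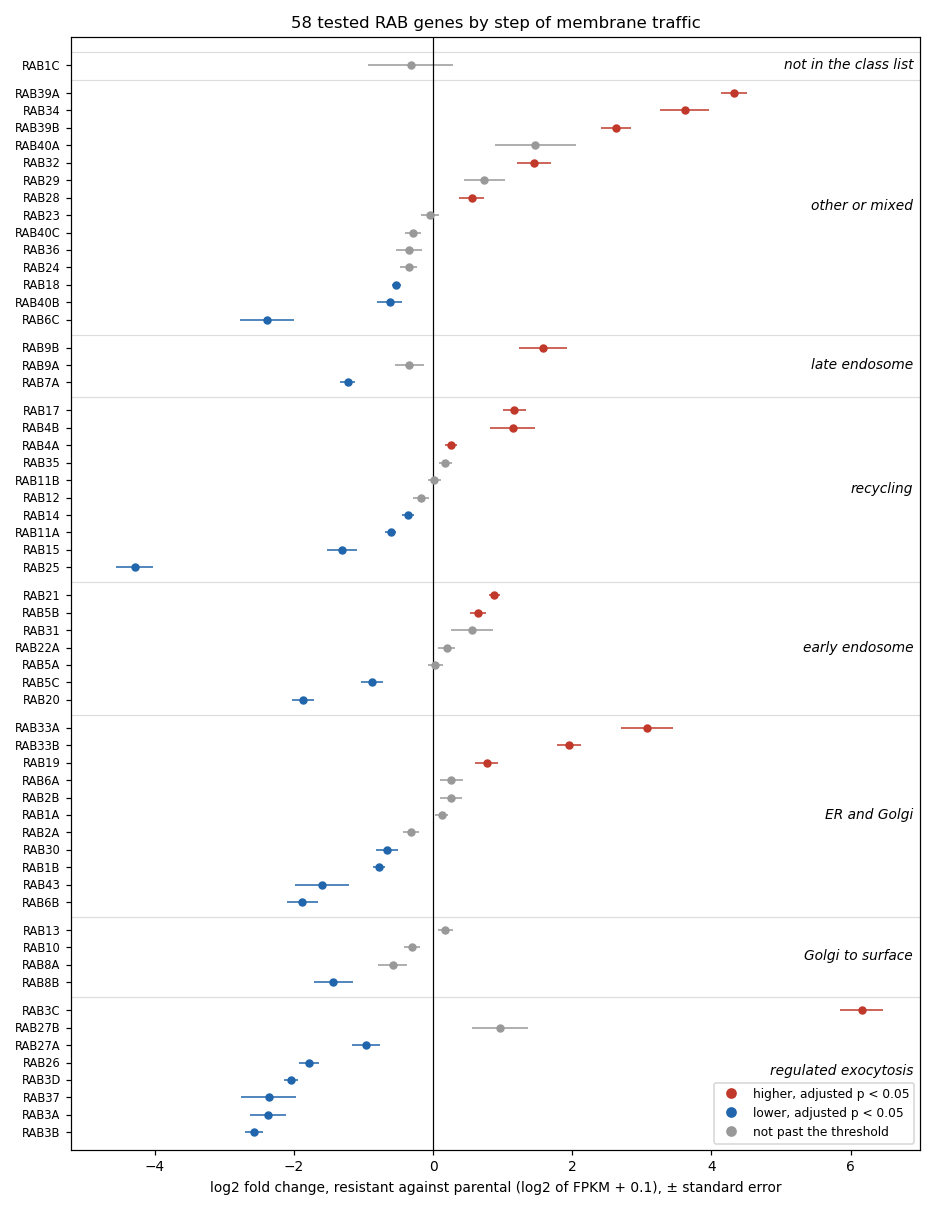
Log2 fold change (resistant minus parental, from log2(FPKM + 0.1)) of the 58 tested RAB genes by transport step, 1 point a gene with a bar of ± 1 SE, coloured by whether the gene passed the threshold. Of the 8 genes of regulated exocytosis, 6 lie below 0 and past the threshold and RAB3C lies far above it at 6.16, while the recycling genes reach down to RAB25 at -4.29.

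Calls among secretory RABs were mostly lower, and calls among endocytic RABs were nearly even. Of 23 tested secretory members, 4 were higher, 11 were lower and 8 did not pass, with a median log2 fold change of -0.58. Of 20 tested endocytic members, 6 were higher, 7 were lower and 7 did not pass, with a median of 0.02. The remaining 15 tested members, of other or mixed function, held 5 that were higher and 3 that were lower. Of all genes, 22.1% were higher and 22.3% were lower, so that the share called lower was above that of all genes in both classes, at 47.8% of secretory and 35.0% of endocytic members. These shares were not matched for level. Among all genes, 27.2% were lower at a mean of 5 to 25 FPKM and 34.5% at 25 FPKM or more, which is near the endocytic share. The difference between the classes was described and not tested. Counting the recycling RABs in neither class left 3 endocytic members higher and 3 lower, with a median of 0.11.

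Summed levels were lower in resistant cells in both classes. Secretory members summed to 765 ± 56.5 FPKM in parental and 524 ± 34.6 FPKM in resistant cells, which is 68.4% of the parental level (n = 3 each). Endocytic members summed to 946 ± 42.6 and 746 ± 31.4 FPKM, or 78.9%. As a share of all RAB FPKM, secretory members went from 40.1% ± 1.17 to 35.4% ± 0.406, and endocytic members from 49.7% ± 0.736 to 50.5% ± 0.732. The secretory shares of the 2 groups did not overlap and the endocytic shares did.

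The step with the lowest ratio was regulated exocytosis. Its 8 genes summed to 175, 160 and 183 FPKM in parental libraries 0, 1 and 2 and to 50.2, 53.8 and 64.0 FPKM in the resistant ones, a level of 32.5% of the parental mean. No resistant library came near a parental one. The secretory members outside this step summed to 593 ± 44.6 FPKM in parental and 468 ± 29.0 FPKM in resistant cells, or 78.9%. Of their 15 tested genes, 3 were higher (20%) and 5 were lower (33.3%), against 22.1% and 22.3% of all genes. Late endosome genes were at 46.4%, a sum that consisted mostly of RAB7A. Early endosome genes were at 105%, recycling genes at 78.6%, genes of the endoplasmic reticulum and Golgi at 79.6%, and those of the route from Golgi to surface at 77.8%.

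**Figure D2:**
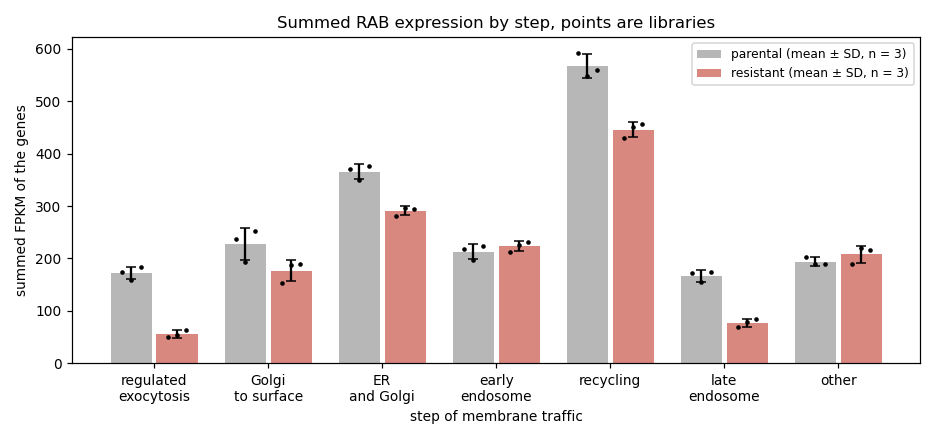
Summed FPKM of the RAB genes of each transport step, with bars at the means of the 3 parental and 3 resistant libraries, error bars of ± 1 SD and a point for each library. Regulated exocytosis goes from 160 to 183 FPKM in parental to 50.2 to 64.0 FPKM in resistant libraries, while early endosome sums lie close together.

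The RAB3 proteins sit on secretory granules and synaptic vesicles and act in the last steps before fusion with the surface. RAB3D, the form of exocrine glands, stood at 84.3, 70.8 and 81.6 FPKM in parental and 17.9, 18.8 and 20.7 FPKM in resistant libraries. It fell by 2.04 ± 0.10 (SE) on the log2 scale (limma, adjusted p = 3.16e-05). RAB3A, the main form of synaptic vesicles, stood at 27.2, 30.8 and 29.2 FPKM in parental and 4.96, 4.10 and 8.31 FPKM in resistant libraries. The groups of both genes lie far apart, and RAB3A fell by 2.37 ± 0.26 on the log2 scale (limma, adjusted p = 5.98e-04). RAB3B, found in epithelial and pituitary cells, stood at 15.8, 15.0 and 15.8 FPKM in parental and 2.29, 2.74 and 2.58 FPKM in resistant libraries. It fell by 2.57 ± 0.13 on the log2 scale (limma, adjusted p = 3.38e-05).

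RAB3C moved in the other direction. This gene, which is expressed mainly in brain, was listed at 0.00638, 0 and 0 FPKM in parental libraries and at 5.63, 7.21 and 9.13 FPKM in the resistant ones. Its log2 fold change was 6.16 ± 0.31 (limma, adjusted p = 3.44e-05). The size depends on the pseudocount, since a parental level near 0 sets no scale: it was 3.03 with 1 FPKM and 9.25 with 0.01 FPKM added. RAB3C made up 20.9% ± 2.27 of the summed RAB3 level in resistant cells, after 0.00167% ± 0.00289 in parental cells (SD, n = 3). The sum itself went from 123 ± 6.03 to 34.8 ± 5.23 FPKM, and RAB3D remained its largest part, at 63.8% ± 2.81 and 55.4% ± 3.996.

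RAB26 and RAB37, which act on granules of gland and immune cells, were lower too. RAB26 stood at 33.1, 31.3 and 43.5 FPKM in parental and 10.6, 9.51 and 10.8 FPKM in resistant libraries. Its log2 fold change was -1.78 ± 0.15 (limma, adjusted p = 2.01e-04), with no overlap. RAB37, named after its values were seen, was low in both groups, at 0.910 to 1.53 FPKM in parental and 0.0966 to 0.194 FPKM in resistant libraries (log2 fold change -2.37 ± 0.39, limma, adjusted p = 0.00339).

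The RAB27 pair docks granules and exosome-bearing endosomes at the surface. RAB27A stood at 9.13, 9.07 and 6.71 FPKM in parental and 3.79, 3.78 and 5.02 FPKM in resistant libraries. It fell by 0.97 ± 0.20 on the log2 scale (limma, adjusted p = 0.00805). RAB27B stood at 4.08, 1.76 and 4.86 FPKM in parental and 4.87, 7.61 and 7.29 FPKM in resistant libraries. These values do not overlap, but parental library 2 and resistant library 0 nearly meet, and the log2 fold change of 0.96 ± 0.40 did not pass (limma, adjusted p = 0.101).

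**Figure D3:**
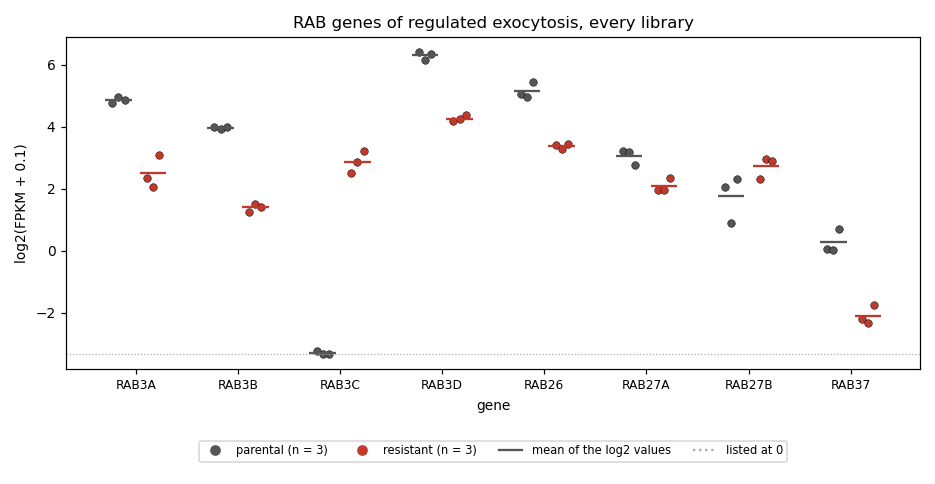
Level of the 8 RAB genes of regulated exocytosis in each of the 6 libraries, as log2(FPKM + 0.1), with lines at the means of the log2 values. RAB3A, RAB3B, RAB3D, RAB26, RAB27A and RAB37 lie lower in all 3 resistant libraries, and RAB3C rises from the line that marks values listed at 0.

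On the route from Golgi to surface, RAB8B was the member of 4 that passed (25%, against 44.4% of all genes). RAB8 proteins carry cargo to the basolateral membrane and the cilium. RAB8B stood at 11.4, 11.2 and 13.5 FPKM in parental and 4.73, 2.87 and 6.15 FPKM in resistant libraries, with a log2 fold change of -1.43 ± 0.28 (limma, adjusted p = 0.00704). Its paralog RAB8A was at 69.9 ± 16.5 and 46.05 ± 6.53 FPKM (limma, adjusted p = 0.0597). RAB10, which serves surface delivery of transporters, was at 118 ± 11.6 and 95.8 ± 11.1 FPKM and did not pass (limma, adjusted p = 0.0733). RAB13, a tight junction RAB, had overlapping groups.

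Genes of the endoplasmic reticulum and Golgi moved both ways, with 3 higher (27.3%) and 4 lower (36.4%) of 11 tested. Of all genes, 22.1% were higher and 22.3% were lower. The RAB33 pair, Golgi proteins that also bind the autophagy factor ATG16L1, was higher. RAB33B stood at 2.44, 1.78 and 2.02 FPKM in parental and 8.08, 8.60 and 7.99 FPKM in resistant libraries (log2 fold change 1.95 ± 0.17, limma, adjusted p = 2.69e-04). RAB33A, a form of brain and immune cells named after its values were seen, went from 0.0699 ± 0.02815 to 1.34 ± 0.318 FPKM (log2 fold change 3.07, limma, adjusted p = 9.82e-04). RAB19, a less studied Golgi member, stood at 3.67, 4.29 and 4.001 FPKM in parental and 7.69, 7.24 and 5.79 FPKM in resistant libraries. Its groups did not overlap, and the log2 fold change was 0.77 ± 0.17 (limma, adjusted p = 0.0103).

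RAB6B, the neuronal form of the RAB6 proteins that return Golgi membrane to the endoplasmic reticulum, fell. It stood at 10.1, 9.34 and 12.5 FPKM in parental and 3.55, 2.17 and 2.85 FPKM in resistant libraries (log2 fold change -1.88 ± 0.22, limma, adjusted p = 8.60e-04). The ubiquitous RAB6A was at 38.2 ± 7.36 and 45.6 ± 6.41 FPKM with overlapping groups (limma, adjusted p = 0.261). RAB6C, a retrogene copy of RAB6A, was called lower from a parental mean of 0.560 FPKM, but reads of near-identical copies cannot be told apart with certainty, so this value is uncertain. RAB43, a Golgi RAB, stood at 6.25, 5.25 and 5.30 FPKM in parental and 1.38, 3.37 and 1.19 FPKM in resistant libraries. The log2 fold change was -1.60 ± 0.39 (limma, adjusted p = 0.0168), and the call was lost without parental replicate 0, resistant replicate 0 or resistant replicate 2, with an adjusted p of up to 0.0594. RAB43 shares 79.3% of its exonic bases with the readthrough gene ISY1-RAB43, and with both summed the resistant libraries reached at most 3.47 FPKM against at least 5.25 FPKM in parental libraries.

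The RAB1 pair starts transport out of the endoplasmic reticulum. RAB1B, named after its values were seen, was the member with the second highest parental level and went from 160.4 ± 14.0 to 93.2 ± 3.21 FPKM (log2 fold change -0.78 ± 0.08, limma, adjusted p = 5.57e-04). RAB1A was at 47.6 ± 5.53 and 51.6 ± 0.654 FPKM with overlapping groups.

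RAB25 had the largest decrease of all members. It is an epithelial relative of RAB11 that recycles membrane to the apical surface. RAB25 stood at 64.3, 60.5 and 54.9 FPKM in parental and 3.12, 4.23 and 1.97 FPKM in resistant libraries. The log2 fold change was -4.29 ± 0.27 (limma, adjusted p = 6.85e-05), a 19.5-fold lower level, and it stayed between -4.53 and -4.00 when any 1 library was left out. The gene lies at chr1:156061160-156070504 and no other gene of GENCODE v44 overlapped its exons.

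RAB17, which also serves polarised epithelial sorting, moved the other way. It stood at 25.7, 20.9 and 31.4 FPKM in parental and 65.0, 54.4 and 54.5 FPKM in resistant libraries. The groups did not overlap, with a log2 fold change of 1.17 ± 0.16 (limma, adjusted p = 0.00176). RAB17 therefore went from 24th to 10th in level among the members and RAB25 from 10th to 46th.

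RAB11A, the general recycling RAB, had the highest level of all members in both groups. It stood at 313, 287 and 284 FPKM in parental and 174, 199.5 and 206 FPKM in resistant libraries, with a log2 fold change of -0.61 ± 0.08 (limma, adjusted p = 0.00164). RAB11B stood at 63.4, 51.0 and 60.7 FPKM in parental and 59.5, 57.7 and 59.3 FPKM in resistant libraries. Its groups overlapped and its log2 fold change was 0.02 ± 0.10 (limma, adjusted p = 0.905). RAB15, a neuronal recycling RAB, stood at 6.60, 8.45 and 6.56 FPKM in parental and 2.53, 2.47 and 3.61 FPKM in resistant libraries. It fell by 1.31 ± 0.21 on the log2 scale (limma, adjusted p = 0.00318).

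The RAB4 pair, which returns receptors quickly from early endosomes, was called higher, but neither call was firm. RAB4B stood at 4.16, 5.98 and 2.38 FPKM in parental and 9.42, 8.77 and 8.07 FPKM in resistant libraries (log2 fold change 1.14 ± 0.33, limma, adjusted p = 0.0293). The call was lost without parental replicate 0 and without each resistant replicate, with an adjusted p of up to 0.0909. Summed with the readthrough gene RAB4B-EGLN2, which shares 27.3% of its exonic bases, it read 5.98, 9.64 and 4.79 FPKM in parental and 9.59, 8.77 and 10.2 FPKM in resistant libraries, and the groups overlapped. RAB4A was at 41.99 ± 2.17 and 50.4 ± 3.50 FPKM (limma, adjusted p = 0.0453), and its call was lost without parental replicate 0 or 2 and without resistant replicate 1 or 2, with an adjusted p of up to 0.122.

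The RAB5 proteins drive fusion of early endosomes, and the 3 genes of this group went 3 ways. RAB5A stood at 26.1, 23.4 and 28.1 FPKM in parental and 24.4, 25.9 and 28.8 FPKM in resistant libraries, with overlapping groups and a log2 fold change of 0.03 ± 0.11 (limma, adjusted p = 0.859). RAB5B stood at 41.6, 40.5 and 41.9 FPKM in parental and 55.1, 65.8 and 74.3 FPKM in resistant libraries, and was higher (log2 fold change 0.64 ± 0.12, limma, adjusted p = 0.00516). RAB5C stood at 94.4, 67.3 and 99.8 FPKM in parental and 44.9, 49.5 and 46.2 FPKM in resistant libraries, and was lower (log2 fold change -0.87 ± 0.16, limma, adjusted p = 0.00476). RAB5C had the highest mean of the 3 in parental cells and RAB5B in resistant cells.

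RAB21 and RAB20 also act early in endocytosis. RAB21, which binds integrins on their way into the cell, stood at 34.5, 37.8 and 32.7 FPKM in parental and 62.6, 66.2 and 64.0 FPKM in resistant libraries. It was higher with a narrow spread (log2 fold change 0.88 ± 0.08, limma, adjusted p = 3.04e-04). RAB20, a RAB of phagosomes and early endosomes, stood at 9.69, 10.2 and 8.66 FPKM in parental and 2.69, 2.74 and 2.17 FPKM in resistant libraries. It fell by 1.87 ± 0.16 on the log2 scale (limma, adjusted p = 2.46e-04).

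RAB7A governs the passage from late endosome to lysosome. It stood at 155, 142 and 162 FPKM in parental and 57.8, 65.5 and 73.5 FPKM in resistant libraries. The groups lie far apart, and the log2 fold change was -1.23 ± 0.11 (limma, adjusted p = 2.51e-04). RAB9A and RAB9B return receptors from late endosomes to the Golgi. RAB9A was at 13.1 ± 2.81 and 10.3 ± 1.93 FPKM and did not pass (limma, adjusted p = 0.221), while the scarcer RAB9B, named after its values were seen, went from 0.332 ± 0.125 to 1.16 ± 0.0532 FPKM (log2 fold change 1.58, limma, adjusted p = 0.0101).

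**Figure D4:**
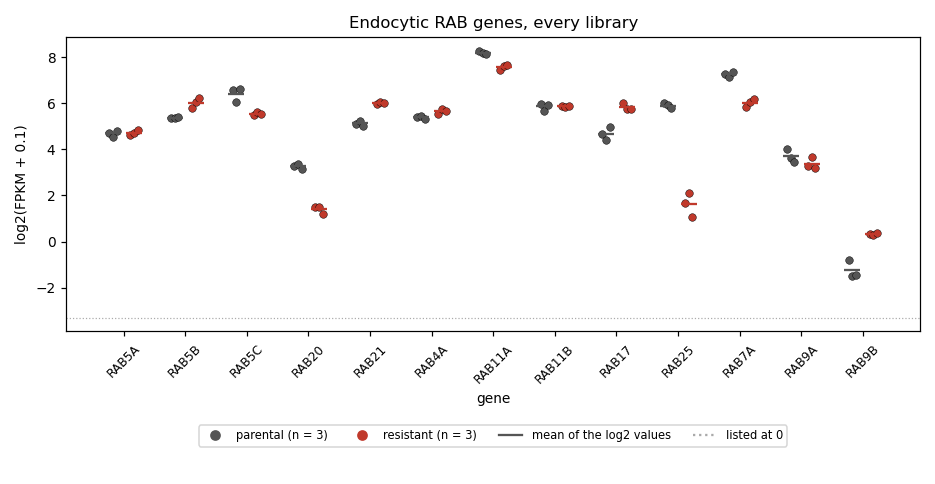
Level of 13 endocytic RAB genes in each of the 6 libraries, as log2(FPKM + 0.1), with lines at the means of the log2 values. RAB25 drops furthest, RAB7A, RAB5C, RAB20 and RAB11A lie lower and RAB5B, RAB17 and RAB21 higher in all 3 resistant libraries, and RAB5A and RAB11B overlap.

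Among members of other or mixed function, the RAB39 pair and 2 organelle RABs rose. RAB39A, a RAB of phagosomes and late endosomes, stood at 0.633, 0.593 and 0.471 FPKM in parental and 12.96, 13.8 and 12.7 FPKM in resistant libraries. Its log2 fold change of 4.32 ± 0.19 (limma, adjusted p = 2.09e-05) was second to RAB3C. RAB39B, a neuronal form in which mutations cause intellectual disability, stood at 0.700, 0.688 and 0.536 FPKM in parental and 4.23, 4.56 and 4.60 FPKM in resistant libraries (log2 fold change 2.63 ± 0.22, limma, adjusted p = 2.11e-04). The pair started from similar parental means of 0.565 and 0.641 FPKM, and RAB39A was the higher of the pair in every resistant library.

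RAB34, which serves cilium formation and lysosome position, stood at 0.0550, 0.0612 and 0.146 FPKM in parental and 1.90, 2.45 and 2.12 FPKM in resistant libraries (log2 fold change 3.62 ± 0.35, limma, adjusted p = 3.96e-04). Its size depends on the pseudocount and was 1.54 with 1 FPKM and 4.59 with 0.01 FPKM added. RAB32, a RAB of melanosomes and mitochondria, stood at 3.62, 3.30 and 1.98 FPKM in parental and 7.83, 8.27 and 8.02 FPKM in resistant libraries (log2 fold change 1.45 ± 0.24, limma, adjusted p = 0.00374). Neither gene had overlapping groups. RAB18, a lipid droplet RAB named after its values were seen, went from 73.8 ± 2.58 to 51.0 ± 1.82 FPKM (limma, adjusted p = 0.00116).

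The counts were also taken by level, and the difference between levels was not tested. Of the 10 tested members with a mean under 5 FPKM, which include the 5 that entered the test through 1 group alone, 5 were higher and 3 were lower, against 19.4% and 15.2% of all genes at that level. Of the 27 members from 5 to 25 FPKM, 6 were higher and 11 were lower, against 24.8% and 27.2%. Of the 21 members at 25 FPKM or more, 4 were higher and 7 were lower, against 25.8% and 34.5%. Among the 14 numbers shared by at least 2 members, RAB3 and RAB5 held calls in both directions, and both members of RAB4, RAB33 and RAB39 were called higher. RAB9 had 1 member called higher, RAB6 had 2 called lower, RAB1, RAB7, RAB8, RAB11, RAB27 and RAB40 had 1 called lower, and RAB2 had none called.

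The members on chromosome X were counted after the values were seen. Of the 6 members on chromosome X, 5 were tested, 3 were higher in resistant cells (RAB33A, RAB39B and RAB9B) and 0 were lower at a limma adjusted p under 0.05, against 19.3% higher and 23.3% lower of the 804 chromosome X genes tested. The other tested members there, RAB40A and RAB9A, had log2 fold changes of 1.47 and -0.34 and did not pass (limma, adjusted p = 0.0841 and 0.221). RAB33A and RAB40A averaged under 0.1 FPKM in parental cells and so entered the test through the resistant group alone. Because chromosome X was picked from the values, these counts are a description, and a link to the chromosome was not tested.

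RABs depend on proteins that lipidate, load and inactivate them. Of 8 tested genes of prenylation and the GDI cycle, 2 were higher and 2 were lower, against 22.1% and 22.3% of all genes. RABAC1, a membrane receptor for prenylated RABs, stood at 39.8, 31.6 and 40.2 FPKM in parental and 103, 140.0 and 121 FPKM in resistant libraries (log2 fold change 1.70 ± 0.15, limma, adjusted p = 2.46e-04). RABGGTB, the catalytic subunit of the enzyme that attaches the lipid tail, went from 104 ± 17.6 to 52.0 ± 4.33 FPKM (log2 fold change -0.99, limma, adjusted p = 0.00154). The chaperone GDI2, which draws inactive RABs off membranes and was named after its values were seen, went from 159.7 ± 21.2 to 100.9 ± 10.6 FPKM (log2 fold change -0.66, limma, adjusted p = 0.00647).

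Exchange factors load GTP, and TBC proteins trigger its hydrolysis. Of 34 tested exchange factors, 10 were higher (29.4%, against 22.1% of all genes) and 9 were lower (26.5%, against 22.3%), with a median log2 fold change of -0.04. These counts were 13 and 6 after upper-quartile, 12 and 6 after median-ratio and 11 and 8 after quantile scaling. DENND2A, called higher, averaged under 0.1 FPKM in parental cells and so entered the test through the resistant group alone. RAB3IP, the exchange factor of RAB8, stood at 31.4, 18.1 and 28.4 FPKM in parental and 90.7, 108 and 104 FPKM in resistant libraries (log2 fold change 1.99 ± 0.21, limma, adjusted p = 5.55e-04). DENND6B, an exchange factor of RAB14, rose from 2.42 ± 0.348 to 7.91 ± 0.391 FPKM, and DENND1A, one of RAB35, fell from 35.2 ± 2.41 to 12.2 ± 0.673 FPKM (limma, adjusted p = 4.19e-04 and 6.94e-05). Of 32 tested TBC genes, 5 were higher (15.6%) and 12 were lower (37.5%), with a median of -0.27. TBC1D30 went from 36.3 ± 2.48 to 9.82 ± 0.717 FPKM (log2 fold change -1.88, limma, adjusted p = 4.43e-05), while TBC1D16 and TBC1D9B fell by 0.82 and 0.76 on the log2 scale. The 5 higher TBC genes were 3 without resistant replicate 1 or without resistant replicate 2.

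Effectors were counted by compartment, and the differences between these lists were not tested. Of 13 genes listed as Golgi effectors, none was higher and 9 were lower, against 22.1% and 22.3% of all genes. Their median log2 fold change was -1.01. The list is not confined to the Golgi, since its member MICAL1 also serves RAB35, counted here as a recycling RAB. MICAL1, an actin-oxidising effector of RAB1 and RAB35, stood at 48.5, 55.6 and 56.3 FPKM in parental and 7.92, 8.20 and 9.86 FPKM in resistant libraries (log2 fold change -2.61 ± 0.12, limma, adjusted p = 2.49e-05). BICD2, which links RAB6 vesicles to dynein, went from 34.9 ± 2.08 to 12.9 ± 0.450 FPKM, and GOLGB1, the Golgi tether giantin, from 74.7 ± 4.21 to 36.8 ± 1.61 FPKM (limma, adjusted p = 6.52e-05 and 1.43e-04).

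Of 23 exocytic effectors, 10 were higher (43.5%, against 22.1% of all genes) and 6 were lower (26.1%, against 22.3%), with a median of 0.38. These counts moved with the processing, to 12 and 3 after upper-quartile or median-ratio scaling, 7 and 6 with no filter on low values and 7 and 7 without resistant replicate 0. Quantile scaling left them at 10 and 6. RIMS2, a RAB3 effector of release sites, stood at 0.0158, 0.0718 and 0.0278 FPKM in parental and 26.2, 26.9 and 32.9 FPKM in resistant libraries (log2 fold change 7.71 ± 0.25, limma, adjusted p = 8.02e-06). Its size depends on the pseudocount, as for RAB3C. RIMS2 and SYTL5, both called higher, averaged under 0.1 FPKM in parental cells and so entered the test through the resistant group alone. RPH3A, which did not pass, entered it through the parental group alone. RPH3AL, also called Noc2, a RAB3 and RAB27 effector of secretory granules, stood at 19.1, 24.1 and 20.8 FPKM in parental and 0.555, 0.442 and 0.316 FPKM in resistant libraries (log2 fold change -5.34 ± 0.23, limma, adjusted p = 2.07e-05). MLPH, the RAB27A effector that recruits myosin Va, went from 74.7 ± 8.12 to 171 ± 5.39 FPKM (log2 fold change 1.20, limma, adjusted p = 1.46e-04). Of the RAB27 effectors outside the naming rule, chosen after their values were seen, MYRIP went from 11.5 ± 2.11 to 1.67 ± 0.435 FPKM, and SYTL2 from 12.0 ± 2.09 to 36.7 ± 5.66 FPKM (limma, adjusted p = 2.79e-04 and 5.27e-04).

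Of 24 endosomal effectors, 4 were higher (16.7%, against 22.1% of all genes) and 10 were lower (41.7%, against 22.3%), with a median of -0.35. These counts were 6 and 8 after upper-quartile, 6 and 9 after median-ratio and 6 and 10 after quantile scaling. VPS41, part of the HOPS complex that tethers late endosomes to lysosomes, went from 25.8 ± 0.637 to 59.4 ± 3.92 FPKM (log2 fold change 1.20, limma, adjusted p = 8.85e-05). FYCO1, which couples RAB7 vesicles to kinesin, fell from 22.2 ± 1.20 to 8.59 ± 0.853 FPKM (log2 fold change -1.36, limma, adjusted p = 2.16e-04). RABEP2, an effector of RAB4 and RAB5, fell from 35.6 ± 2.81 to 12.95 ± 2.07 FPKM (log2 fold change -1.46, limma, adjusted p = 4.08e-04).

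**Figure D5:**
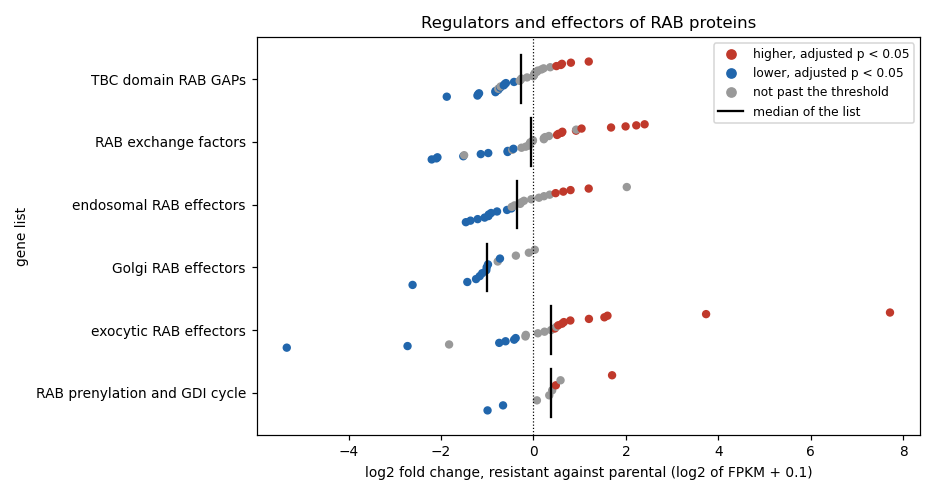
Log2 fold change (resistant minus parental, from log2(FPKM + 0.1)) of the tested genes in 6 lists of RAB regulators and effectors, 1 point a gene, coloured by whether it passed the threshold, with a line at each list's median. The Golgi effectors lie at or below 0 apart from 1 gene near it, and the exocytic effectors span from RPH3AL at -5.34 to RIMS2 at 7.71.

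Some values rest on shared sequence. RAB24 shares 44.8% of its exonic bases with MXD3 on the same strand, RAB23 shares 57.8% with BAG2 on the opposite strand and RAB5C shares 28.8% with an unnamed gene, and the use of strand in the authors' counting is not given in the sources used here. Neither RAB23 nor RAB24 passed the threshold.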

How the data were processed

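RNA-Seq of 3 parental and 3 resistant C4-2B libraries was analysed. Reads of 50 bp, single-end, were per the study's methods trimmed, aligned with STAR to GRCh38 and turned by the authors into the deposited FPKM values with Cufflinks on GENCODE v25, while the submitters' processing notes name Trimmomatic 0.27, FastQC 0.10.1 and a mouse build. The table holds no counts, so depth was estimated from the smallest values, assuming fragments of 200 bases. The gene symbols and human identifiers of the table matched GENCODE v44 for 56980 of 58024 genes, all 63 members included.

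Groups came from the sample titles. The 24468 genes that averaged 0.1 FPKM or more were compared on log2(FPKM + 0.1) with limma 3.58.1 in R 4.3.3 (moderated test with a variance trend, no block, two-sided), with Benjamini-Hochberg adjustment over all of them and a threshold of 0.05. The script was tested on simulated data. Replicate numbers did not pair the libraries. Members were sorted into classes by known function. The members, classes and lists were chosen with earlier results of these data known. Named were the 10 largest increases and decreases past the threshold with no overlap and a mean of at least 1 FPKM, the RAB3, RAB5, RAB7, RAB11 and RAB27 groups, paralogs called in opposite directions, the 3 genes of smallest adjusted p in each list, and cell type markers, some of which are not reported here. Sums and shares are of FPKM, and ± is the SD of 3 libraries, or the SE after a log2 fold change. Promoters are from RefSeq (GRCh38.p14). Alternatives were 2 other pseudocounts, 2 other filters, 3 scalings, no variance trend, a 2-fold limit, a replicate block, another class split and leaving out each library. Protein sequences were not used here.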

Additional observations from a re-analysis of the deposited data

How the results depend on the processing

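No called RAB gene changed sign under any alternative. With a 2-fold limit, 10 of 58 members were higher and 13 lower, and 3 of 20 endocytic members were higher and 4 lower. Of 134 tested regulators and effectors, 13 were higher and 22 lower with this limit, after 31 and 48 without it. Of all genes, 15.0% were higher and 13.6% lower with the limit, and 22.1% and 22.3% without it. Without the limit, the regulators and effectors had even counts of 40 higher and 38 lower with upper-quartile and 40 and 40 with median-ratio scaling. Quantile scaling did not even them, with 35 higher and 47 lower. Of the members, 16 were higher and 18 lower with upper-quartile, 16 and 19 with median-ratio and 17 and 21 with quantile scaling. The median log2 fold change of the members, -0.23, became -0.15 with a pseudocount of 1 FPKM, -0.058 with no filter on low values, -0.10 with upper-quartile, -0.13 with median-ratio and -0.14 with quantile scaling, and ranged from -0.223 to -0.064 when 1 library was left out. The endocytic median, 0.02, became 0.15, 0.13 and 0.12 under these 3 scalings and 0.11 without the recycling RABs, when 3 members were higher and 3 lower, and ranged from -0.059 to 0.069 when 1 library was left out. The secretory median stayed between -0.78 and -0.45. The median of all genes, -0.05, was 0.065 with upper-quartile, 0.042 with median-ratio and -0.074 with quantile scaling. The median of the regulators and effectors, -0.15, became -0.024 with upper-quartile, -0.048 with median-ratio and -0.12 with quantile scaling. Leaving out 1 library gave 12 to 14 members higher and 18 to 22 lower, and 23 to 30 regulators and effectors higher and 42 to 46 lower. RAB5A, not called, ranged from -0.041 to 0.089, and RAB11B, not called, from -0.078 to 0.080.

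Replicates with the same number deviated from their group means with correlations of 0.00802, 0.0165 and -0.00301, so the numbers were not taken to pair the libraries. With the replicate block, 13 members were higher and 20 lower, with the block taking 9463 of all genes past the threshold, after 10868 without it. In this fit RAB28, RAB4A, RAB14 and RAB40B did not pass and RAB24 did.

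The table holds no counts, so no counting interval is given, and values under about 0.0407 FPKM on a gene of 2000 bases rest on about 1 read. The labels do not say how the 3 libraries of a group were obtained. Resistance and the drug present at extraction cannot be told apart in 1 selected line.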

Other observations

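RAB29, a RAB of the Golgi and lysosome that recruits the kinase LRRK2, was at 50.8, 23.5 and 38.3 FPKM in parental and 47.5, 68.25 and 65.6 FPKM in resistant libraries, with overlapping groups (limma, adjusted p = 0.0877). RAB31, an endosomal RAB, ranged from 5.99 to 10.7 FPKM in parental and from 9.18 to 15.7 FPKM in resistant libraries, with overlapping groups as well (limma, adjusted p = 0.182).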
